A study of Mus musculus with 27 samples.

Results

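Growth-factor immediate early genes were followed as 10 listed members: the transcription factors Egr1, Egr2, Egr3, Nr4a1, Srf and Myc, the immediate early response genes Ier2, Ier3 and Ier5, and Phlda1. All 10 had a value in each of the 27 libraries, among 18644 genes that did so, and all 10 passed the filter on low values in each experiment. In the libraries of siRNA- and inhibitor-treated cells the members were taken by gene symbol, and in the total RNA libraries, whose rows carry no symbols, by the row that covered the gene. Immediate early genes are those that a cell transcribes first after growth factors or serum reach it, before any new protein is needed. The signal runs through Ras, Raf, MEK and the kinase ERK to Ets-family ternary complex factors, which sit with Srf on CArG boxes, and through CREB on cAMP response elements. In growing fibroblasts these genes are known to be kept at a basal level by serum and to be limited by feedback from ERK phosphatases and Sprouty proteins.

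The cells were immortalized mouse embryonic fibroblasts (iMEFs) in which Setdb1, a histone H3 lysine 9 methyltransferase, can be deleted by 4-hydroxytamoxifen (4OHT). All groups, controls included, were made from Setdb1 cKO iMEFs, and the study describes a line recloned from single cells, so the replicates are not separate animals. In the total RNA experiment (rRNA depleted, 3 libraries a group) untreated cells were compared with cells at day 5, given 4OHT for the first 4 days, and with a long-term knockout (KO) line. By the sample records that line was grown for more than 2 weeks after 4OHT, while the study's methods give more than 1 week. In the siRNA experiment (2 libraries a group, day 6) cells received control siRNA (siCtrl) or siRNA against Dnmt1 (siDnmt1), the maintenance DNA methyltransferase, without 4OHT or with 4OHT from day 0. In the inhibitor experiment (2 libraries a group) untreated cells were set beside cells given the histone deacetylase inhibitor trichostatin A (TSA, 150 nM, 24 h), the MEK inhibitor PD0325901 (1 µM, last 24 h; the labels also spell it PD0325091), 4OHT with harvest at day 6, or 4OHT with PD0325901. Nothing in the labels says that replicates came from separate cultures, so p-values measure the spread between these libraries, which may be technical.

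The values are FPKM, fragments per kilobase of transcript, scaled to the mapped fragments of the library. A difference is the log2 difference of FPKM + 0.1 between groups, tested with limma over all genes of an experiment. A member is said to have risen or fallen where the adjusted p was under 0.05, and is called higher or lower where the fold was also at least 2. Such folds understate the change of genes near 0.1 FPKM.

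Promoter sequence is shown for Egr2 and Nr4a1, members with large differences after 4OHT in each experiment, and for Srf, which encodes the protein that reads CArG boxes. The RefSeq promoter table (GRCm38.p6) held 5 members, Egr2, Ier3, Ier5, Nr4a1 and Srf, and each window of 250 bases before the start matched a single place in mm9. Where a gene had several starts, the window nearest its start in the deposited rows was used. Egr2 has other annotated starts, 1 of them 2370 bases upstream, so its stretch can lie within a longer transcript unit. The Ier3 window overlaps 1 annotated exon. Capitals mark CArG boxes (CC and GG around a run of A and T), CCGGAA (the Ets core), TGACG (the core of the CREB/ATF element) and TATAAA, read on either strand.
Egr2, chr10:67000543-67000572, plus strand: gtCCATATATGGgcagcgaCGTCAcgggta
Nr4a1, chr15:101097027-101097276, plus strand: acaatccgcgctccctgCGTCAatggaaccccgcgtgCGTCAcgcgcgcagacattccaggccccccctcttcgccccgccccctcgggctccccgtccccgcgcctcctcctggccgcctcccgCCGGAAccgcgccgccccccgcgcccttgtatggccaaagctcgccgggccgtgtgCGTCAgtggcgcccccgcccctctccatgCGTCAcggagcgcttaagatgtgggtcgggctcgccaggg
Srf, chr17:46693112-46693361, minus strand: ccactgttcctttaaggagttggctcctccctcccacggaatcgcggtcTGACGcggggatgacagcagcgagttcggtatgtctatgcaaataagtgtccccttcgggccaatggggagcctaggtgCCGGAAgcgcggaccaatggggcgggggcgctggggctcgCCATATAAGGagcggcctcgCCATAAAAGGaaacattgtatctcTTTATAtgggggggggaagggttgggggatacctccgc

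With the base before the start counted as -1, Egr2 had a CArG box from -72 to -63 and Srf had a pair, from -82 to -73 and from -62 to -53. CArG boxes were found in 2 of the 5 member windows and in 1.48% of 32526 promoter windows of the same length. TGACG was present in 3 of the 5 (Egr2, Nr4a1 and Srf) against 17.9% of all windows, and Nr4a1 alone held 4 copies. CCGGAA was present in 2 (Nr4a1 and Srf) against 12.1%. Of the GC-rich elements, GCGGGGGCG, a variant of the Egr site, was in 2 (Nr4a1 and Srf) against 2.6%, and GGGCGG, the Sp1 core, was in 4 against 33%. TATAAA was in 1 (Srf) against 12.3%. The canonical Egr site GCGTGGGCG, the full element TGACGTCA and the AP-1 site TGANTCA were in none of the 5, against 0.541%, 1.56% and 6.73%. These GC-rich and CREB/ATF patterns can overlap each other, and a match is a description of letters only. Ier3 and Ier5 had GGGCGG and no other of these motifs in their windows.

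The members lie on mm9 chromosomes 18 (Egr1, 35020861-35024610), 10 (Egr2, 67000617-67004936; Phlda1, 110943342-110945705), 14 (Egr3, 70477252-70482420), 8 (Ier2, 87185230-87186751), 17 (Ier3, 35958658-35959856; Srf, 46683788-46693111), 1 (Ier5, 156943497-156946766) and 15 (Myc, 61816896-61821916; Nr4a1, 101097277-101105225). These are the whole gene spans as the deposited rows give them.

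The authors' confidence intervals implied 32380000 to 40770000 fragments a library for total RNA, 13690000 to 15500000 for siRNA and 10800000 to 12530000 for inhibitors. Fragment numbers were taken only from intervals within a set width. Among those, Egr2 in the inhibitor experiment rested on as few as 17.0 implied fragments in a library, whereas Egr1 rested on at least 1746 there. No fragment number was taken for 8 member values with wider intervals. Among them were Egr2 in siCtrl replicate 2 and in untreated replicate 1 of the inhibitor experiment. Phlda1 in TSA replicate 1 and Egr3 in siDnmt1 replicate 1 were others. Both Egr3 values with 4OHT + PD0325901 were also among them, with half-widths of 56.6% and 59.6% of FPKM. Both of these Egr3 values can rest on fewer than 17.0 fragments. For others, such as Egr2 at 60.9 FPKM in siCtrl replicate 2, the width alone does not show few fragments. Dnmt1 was at 80.5 and 73.4 FPKM with siCtrl and at 12.2 and 10.6 with siDnmt1. Setdb1 FPKM gave no such check: it was 5.16 to 5.95 in untreated total RNA, 4.16 to 6.52 at day 5 and 6.96 to 7.32 in the long-term KO. In the siRNA experiment Setdb1 was at 7.40 and 6.48 FPKM with siCtrl and at 7.58 and 5.00 with 4OHT + siCtrl, and in the inhibitor experiment at 8.76 and 10.1 untreated, listed at 0 in 4OHT day 6 replicate 1 and both 4OHT + PD0325901 libraries, and at 5.30 in 4OHT day 6 replicate 2. Fibroblast markers were abundant in every group, summing to at least 1386 FPKM over the 9 or 10 of 11 listed genes with a value. Ptprc and Itgam of the haematopoietic list were under 0.1 FPKM in every group but TSA, where Ptprc was above it, and Krt5 of the epithelial list was under 0.1 FPKM throughout. Other genes of these lists were above 0.1 FPKM in some groups. The endothelial list summed to at most 2.248 FPKM in a library, with TSA.

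Libraries that stood apart touch several results. The library labelled 4OHT + siCtrl replicate 2 had 14.6 FPKM of the interferon factor Irf7 where replicate 1 had 279, and Irf7 was at 21.2 and 21.5 with siCtrl. Its Krt8 (6.97 FPKM against 0.215 in replicate 1) and Cd68 (8.58 against 3.30) also stood apart from replicate 1, Cd68 being close to the 8.31 and 8.55 of 4OHT + siDnmt1, while its Dnmt1 was at 78.3. Whether this library carries the right label or full deletion was not tested, and each 4OHT + siCtrl mean rests on it and 1 other library. The file of PD0325901 replicate 2 names a 4OHT + PD0325901 library in its header, while its label says PD0325901, and its Irf7 was 4.02 FPKM, beside 4.75 in replicate 1 and 266 and 321 with 4OHT + PD0325901. Over the 10 members, the median difference between replicates was 1.25 log2 units for PD0325901, 0.782 for 4OHT + siCtrl and 0.457 for 4OHT + PD0325901, and at most 0.427 in the other groups. The plot of replicate differences shows where the members disagreed.

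**Figure D1:**
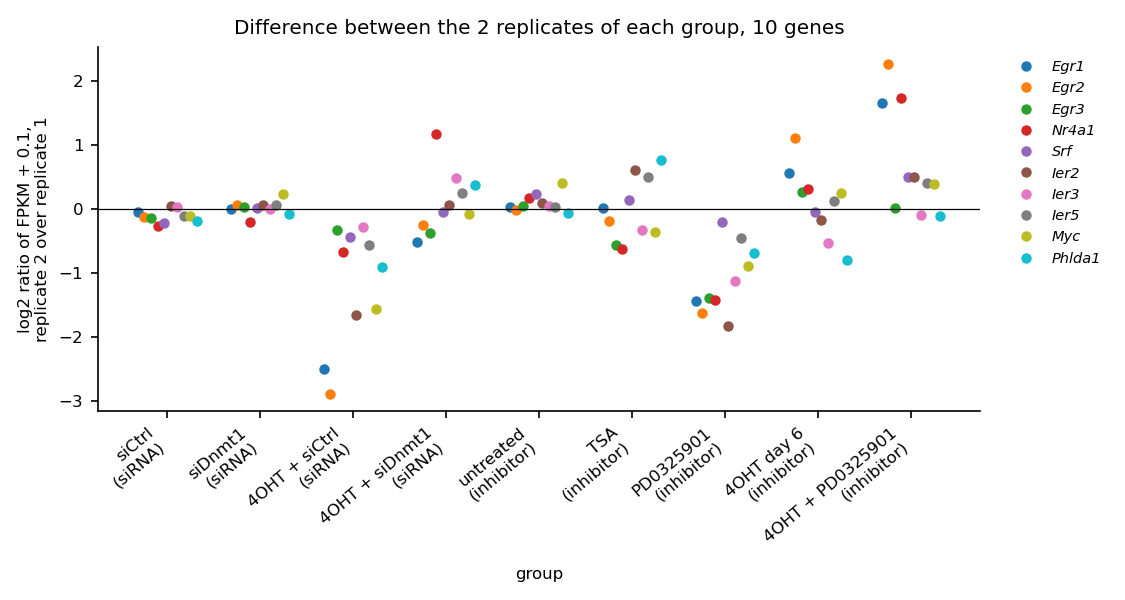
Log2 ratio of FPKM + 0.1 of replicate 2 over replicate 1 (y axis) for each of the 10 genes (coloured points) in the 9 groups with 2 libraries (x axis). Most members were lower in replicate 2 of 4OHT + siCtrl and of PD0325901, Egr1, Egr2 and Nr4a1 were higher in replicate 2 of 4OHT + PD0325901, and the siCtrl, siDnmt1 and untreated points lie close to 0.

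Levels in untreated cells spanned a wide range. In untreated total RNA the order by mean was Egr1 (101 ± 9.03 FPKM, SD, n = 3), Ier2 (89.9 ± 2.02), Ier3 (65.9 ± 9.97), Nr4a1 (54.0 ± 7.58), Ier5 (51.5 ± 11.2), Myc (27.2 ± 1.99), Srf (13.4 ± 0.501), Egr2 (9.45 ± 0.244), Phlda1 (5.81 ± 0.330) and Egr3 (3.98 ± 0.0884). Ier3, Nr4a1 and Ier5 were within each other's spread, and the remaining neighbours were further apart than their SDs, except Egr1 and Ier2, whose libraries overlapped. Egr1 was also the highest member and Egr3 the lowest with siCtrl (814 ± 18.2 and 28.2 ± 1.99 FPKM, n = 2) and in untreated cells of the inhibitor experiment (460 ± 7.92 and 19.1 ± 0.475). Library type and read length differ between the experiments, so levels were compared only within an experiment.

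**Figure D2:**
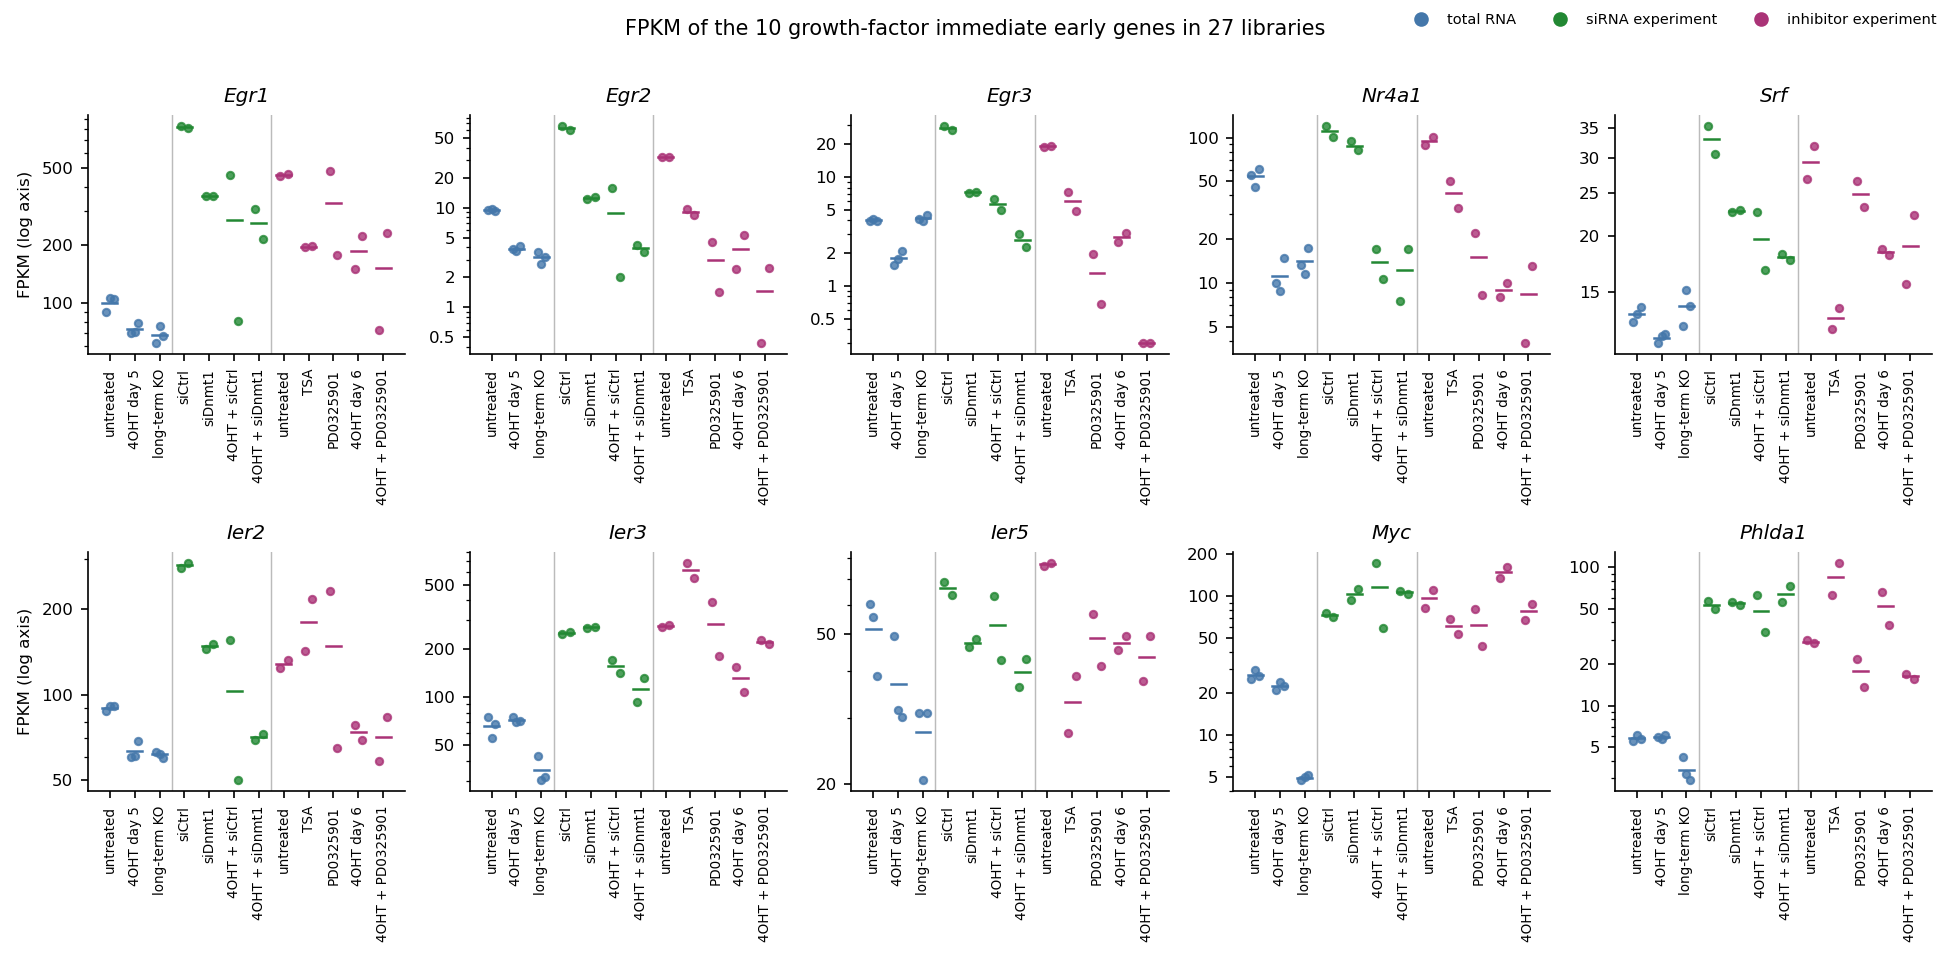
FPKM on log axes (y) of each of the 10 genes in the 12 groups (x), with a point for each library and a bar for the group mean; the vertical lines separate the total RNA, siRNA and inhibitor experiments. Egr2, Egr3 and Nr4a1 lie below the untreated or siCtrl level in the 4OHT groups of each experiment, with Egr3 back at the untreated level in the long-term KO, and Myc is low in the long-term KO alone among the total RNA groups.

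At day 5 of 4OHT, the Egr genes and Nr4a1 were lower than in untreated cells, and no member was higher. Of the 10 members, 3 (Egr2, Egr3 and Nr4a1) were called lower, where 1.35% of the 8351 genes tested were. In all 6 members fell, against 18.4% of all genes. Libraries of the treated and untreated groups did not overlap for 7 members, all below, as for 24.8% of all genes, and the members' median difference was -0.47 against 0.00 for all genes.

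Nr4a1, an orphan nuclear receptor, showed the largest difference of the members. It stood at 55.2, 45.9 and 60.9 FPKM in untreated cells and at 10.0, 8.79 and 14.8 at day 5. The groups were far apart, and the log2 difference was -2.28 ± 0.23 (SE, n = 3 and 3; limma adjusted p = 0.000199), a fold of 4.87. Egr2, a zinc finger factor known from hindbrain and Schwann cells, was at 9.54, 9.64 and 9.17 FPKM untreated and at 3.85, 3.72 and 4.12 at day 5 (difference -1.26 ± 0.09, limma adjusted p = 3.57e-05). Its relative Egr3 was at 3.96, 4.08 and 3.91 untreated and at 1.57, 1.75 and 2.09 at day 5 (-1.11 ± 0.10, limma adjusted p = 0.000123). In both genes each group was tight and the groups did not meet.

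Egr1, the most abundant member and a sensor of growth-factor signalling, was at 90.7, 107 and 106 FPKM untreated and at 70.4, 70.8 and 79.2 at day 5. Ier2 was at 87.5, 91.1 and 91.0 untreated and at 60.3, 60.6 and 68.5 at day 5. Both fell without reaching 2-fold, by 0.46 and 0.51 on the log2 scale (limma adjusted p = 0.0076 and 0.000238). Myc, the driver of ribosome production and growth, was at 25.4, 29.3 and 26.7 untreated and at 21.1, 24.0 and 22.5 at day 5, a difference of -0.27 ± 0.07. Its adjusted p was 0.0186 in limma, but 0.0526 without untreated replicate 2 and 0.0576 without day 5 replicate 1.

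The remaining members did not pass. Srf differed by -0.17 and Ier5 by -0.49 (limma adjusted p = 0.0789 and 0.187), and the Ier5 libraries of both groups overlapped. Ier3, which limits cell death, and Phlda1, a pleckstrin-homology-like protein of growth-factor responses, differed by 0.13 and 0.04 (adjusted p = 0.533 and 0.847 in limma). Of the other immediate early genes, a list of 40 with 33 tested, 5 rose and 14 fell (median -0.27), where 18.9% of all genes rose and 18.4% fell. Id3, Id1 and Fosl2 fell most, by 1.45, 1.36 and 1.34 on the log2 scale, and Gem (0.79), Csrnp1 (0.63) and Mafk (0.55) rose. The ERK feedback and Ets genes went both ways, 4 up and 5 down of 17 (median 0.03), with Dusp4 at 0.73 and Dusp1 at -0.60. At day 5 fibroblast markers summed to 1386 to 1472 FPKM, against 1694 to 1709 untreated, and 5 of the 8 tested fell while 1 rose. Epithelial markers summed to 4.185 to 5.271 FPKM, against 1.22 to 1.559 untreated, and 1 of the 2 tested rose. In bulk RNA, fewer cells of a type and less RNA per cell cannot be told apart, and the part of these markers in the members' differences was not tested.

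In the long-term KO line Myc was the member furthest below the untreated cells, and Egr3 was back at their level. Egr2, Myc and Nr4a1 were called lower, 3 of 10 against 6.48% of 8351 genes, and 8 of 10 members fell, against 29.8% of genes. None rose, where 37.9% of genes did. The members' median difference was -0.83, against 0.07 over all genes, and 8 members lay below without overlap, as did 32% of genes.

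Myc was at 4.75, 4.98 and 5.2 FPKM in the long-term KO, the lowest 3 of the 9 libraries by a wide margin. The difference from untreated cells was -2.42 ± 0.07 (limma adjusted p = 7.06e-08), a fold of 5.37, and from day 5 it was -2.16 ± 0.07. The day 5 and long-term groups share the untreated controls. Myc partners and textbook Myc targets, genes of nucleolar and nucleotide metabolism among them, fell in 10 of 14 tested members of that list and rose in 1 (median -0.85). Nme1, Ncl and Nop56 fell by 1.63, 1.62 and 1.62 on the log2 scale, and the Myc antagonist Mxd4 rose by 1.01. At day 5 the same list had a median of -0.21, with 7 down and 1 up.

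Egr2 was at 3.58, 2.76 and 3.18 FPKM and Nr4a1 at 13.3, 11.6 and 17.5 in the long-term KO. Both remained under every untreated library, with differences of -1.55 ± 0.09 and -1.94 ± 0.23 (limma adjusted p = 2.48e-06 and 0.000128). Egr2 was slightly below its day 5 level (-0.29, limma adjusted p = 0.02; 0.0641 without day 5 replicate 3), and Nr4a1 did not differ from day 5 beyond the spread (0.34 ± 0.23, adjusted p = 0.213 in limma). Egr3 parted from them: at 4.10, 3.95 and 4.46 FPKM it overlapped the untreated libraries (difference 0.06 ± 0.10). Against day 5 it was called higher (1.17 ± 0.10, limma adjusted p = 2.28e-05), the only member in that direction, where 6.86% of genes were called higher.

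Egr1 (62.3, 76.6 and 67.5 FPKM) and Ier2 (62.8, 61.8 and 59.9) stayed near their day 5 levels. Against untreated cells they fell by 0.56 and 0.55, and against day 5 the differences were -0.10 and -0.04 (limma adjusted p = 0.400 and 0.572). Ier3, Ier5 and Phlda1 were lower than untreated by 0.92, 0.91 and 0.75 on the log2 scale (limma adjusted p = 0.000989, 0.0157 and 0.00122). Ier3 stood at 43.1, 30.2 and 31.6 FPKM in the long-term KO, beside 74.9, 69.9 and 70.6 at day 5, and Phlda1 at 4.27, 3.20 and 2.89, beside 5.98, 5.75 and 6.15. Neither overlapped its day 5 level: Ier3 was called lower than at day 5 with Myc (-1.05 ± 0.15, 2 of 10 members against 6.17% of genes), and Phlda1 fell by 0.79. Srf, at 12.6, 15.2 and 14.0 FPKM, differed from untreated by 0.05 and rose from day 5 by 0.23 (limma adjusted p = 0.0172; 0.0546 without day 5 replicate 1). The Ier5 fall had a limma adjusted p of 0.0537 without untreated replicate 1 and of 0.0503 without long-term replicate 2. Without long-term replicate 1, 5 members were called, and the share of all genes called was not taken in that fit.

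Other growth-factor genes also differed in the long-term KO. Of 33 other immediate early genes tested, 20 fell and 9 rose (median -0.78), where 29.8% of all genes fell and 37.9% rose. Fosl1, Ctgf and Hbegf fell by 3.96, 2.61 and 2.42, while Id3 (2.05), Fosb (1.94) and Fos (1.65) rose. ERK feedback and Ets genes fell in 11 of 17 and rose in 3 (median -1.08), led by Etv4 (-3.39), Etv5 (-2.21) and Spry4 (-1.75). The Srf and Mrtf cytoskeletal targets, by contrast, had 7 up and 3 down of 15 (median 0.03), with Acta2 at 1.79 and Zyx at -0.71. Fibroblast markers summed to 1802 to 1871 FPKM in this line and proliferation genes to 694.5 to 725.4, against 627.4 to 690.8 untreated.

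Dnmt1 siRNA alone was accompanied by lower Egr3, a zinc finger factor closely related to Egr1. Egr3 was the only member called, 1 of 10 against 2.46% of the 10581 genes tested called lower. It stood at 29.6 and 26.8 FPKM with siCtrl and at 7.16 and 7.34 with siDnmt1, values well apart (-1.94 ± 0.18, n = 2 and 2, limma adjusted p = 0.00402). The authors' confidence interval for the 7.16 value ran from 0 to 46.7 FPKM and so covered both siCtrl values. Egr2 went from 66.5 and 60.9 to 12.1 and 12.7 FPKM, and Egr1 from 827 and 801 to 357 and 359, with close replicates in both groups. Their differences were -2.35 ± 0.83 and -1.19 ± 0.72 and did not pass (limma adjusted p = 0.138 and 0.359), and the fit estimates 1 spread over all groups, 4OHT + siCtrl included, whose replicates were 2.89 log2 units apart for Egr2.

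Without the library labelled 4OHT + siCtrl replicate 2, Egr1, Egr2 and Egr3 were all called lower with siDnmt1 (3 of 10 against 3.86% of genes). In that fit Egr1 had an adjusted p of 0.00949 and Egr2 of 0.000491 in limma, Ier2 (-0.95), Srf (-0.53) and Ier5 (-0.48) fell, and Myc rose by 0.48. Ier2 was at 280 and 292 FPKM with siCtrl and 145 and 151 with siDnmt1, while Myc was at 76.2 and 70.8 and at 94.3 and 112. The Egr3 call was lost without siCtrl replicate 1 (-1.87) and without siDnmt1 replicate 1 (-1.93, limma adjusted p = 0.0533). Nr4a1 (121 and 101 against 94.2 and 81.9 FPKM), Ier3 (246 and 253 against 271 and 272) and Phlda1 (56.9 and 50.3 against 56.5 and 53.5) differed by -0.33, 0.12 and 0.04 in the fit of all libraries and did not pass. Over the members, 7 lay below and 2 above siCtrl without overlap, against 44.9% and 27% of genes. Epithelial markers moved with the siRNA: they summed to 55.68 to 55.99 FPKM with siDnmt1, against 0.6769 to 1.048 with siCtrl, with Krt8 at 36.7 and 36.4 and Krt5 near 0. Fibroblast markers fell in 4 of 10 and rose in 1 (median -0.89), summing to 3199 to 3313 FPKM against 4047 to 4128, and handling stress genes summed to 299.3 to 348.9 FPKM against 161.7 to 166.5. The part of these markers in the members' differences was not tested.

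After 4OHT with control siRNA, Egr2, Egr3 and Nr4a1 were again the members called lower, 3 of 10 against 3.46% of genes. Nr4a1 was at 17.1 and 10.7 FPKM, against 121 and 101 with siCtrl (-3.02 ± 0.40, limma adjusted p = 0.0095, a fold of 8.11). Egr3 was at 6.29 and 4.98 FPKM, against 29.6 and 26.8 (-2.31 ± 0.18, limma adjusted p = 0.0024). Egr2 was at 15.7 and 2.03 FPKM, 2 very unequal libraries that were still both under siCtrl (-3.46 ± 0.83, limma adjusted p = 0.0433). Its siCtrl value of 60.9 FPKM had an authors' confidence interval from 0 to 2583. Srf (22.7 and 16.8 FPKM against 35.4 and 30.6) and Ier3 (170 and 140 against 246 and 253) fell by 0.75 and 0.69 on the log2 scale (limma adjusted p = 0.0318 and 0.0494). Srf passed in 8 of the 12 alternative fits and Ier3 in only 4. In all 8 members lay below siCtrl without overlap, against 24.5% of genes.

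Egr1 and Myc depended on which 4OHT + siCtrl library was read. Egr1 was at 460 and 81.5 FPKM, both under siCtrl, for a difference of -2.07 ± 0.72 that did not pass (limma adjusted p = 0.107). Ier2 was at 156 and 49.8 FPKM (-1.70 ± 0.47, limma adjusted p = 0.0629). Myc was at 174 in replicate 1 and at 59.0 in replicate 2, on either side of the siCtrl libraries. Without replicate 2, Myc was called higher (1.24, a fold of 2.36, limma adjusted p = 0.00366; 1 of 10 members against 5.11% of genes) and Egr1 and Ier2 fell by 0.82 and 0.87, with 3 members called lower against 4.64% of genes. Without replicate 1, 5 members were called lower (Egr1, Egr2, Egr3, Ier2 and Nr4a1; 5.32% of genes) and Myc differed by -0.32 with no call. Leaving out either siCtrl library left 1 member called.

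The lists moved unevenly in this comparison. Of 36 other immediate early genes, 6 fell and 2 rose, where 6.5% of all genes fell and 7.24% rose, with Fos at -4.0, Zfp36 at -2.69 and Cyr61 at -1.87. Srf and Mrtf cytoskeletal targets fell in 8 of 19 and rose in none (median -0.65), with Myl9 at -2.49 and Tpm1 at -1.26. At 4OHT day 6 of the inhibitor experiment the same list went the other way, with 6 up and 0 down of 18. Of 20 ERK feedback and Ets genes only Spry1 fell (-2.39), and none rose. Fibroblast markers fell in 7 of 10, summing to 2054 to 2552 FPKM against 4047 to 4128, and their part was not tested.

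With both 4OHT and siDnmt1, the Egr genes reached their lowest levels of the siRNA experiment apart from the library labelled 4OHT + siCtrl replicate 2. Against siDnmt1 alone, Egr3, Ier3 and Nr4a1 were called lower, 3 of 10 against 2.28% of genes. Nr4a1 was at 7.53 and 17.2 FPKM (-2.94 ± 0.40 from 94.2 and 81.9, limma adjusted p = 0.0140), Ier3 at 92.9 and 131 (-1.30 ± 0.17 from 271 and 272, adjusted p = 0.0134 in limma) and Egr3 at 2.96 and 2.28 (-1.44 ± 0.18 from 7.16 and 7.34, limma adjusted p = 0.0126). None of these groups overlapped, and 8 members lay below, against 23.9% of genes. The Egr3 value of 7.16 FPKM with siDnmt1 had the wide confidence interval given above. The median of all genes was 0.14 here and the members' median was -0.77. Fibroblast markers fell in 6 of 10 (median -1.37), summing to 1868 to 2117 FPKM against 3199 to 3313, and their part in the members' differences was not tested. All 3 calls were lost without either siDnmt1 library, at limma adjusted p of 0.109 to 0.119 and differences between -3.04 and -1.29. Without 4OHT + siCtrl replicate 2 in the shared fit there were 5, Egr2 (-1.64) and Ier2 (-1.06) being added, where 3.2% of genes were called lower.

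Against 4OHT + siCtrl, the addition of siDnmt1 left Egr3 as the only member called lower (-1.08 ± 0.18, limma adjusted p = 0.0471), 1 of 10 against 0.406% of genes. Egr2 was at 4.26 and 3.59 FPKM, between the unequal 4OHT + siCtrl libraries. Egr1 (307 and 216 FPKM), Ier2 (69.4 and 72.3) and Myc (110 and 104) also fell between them, and 2 members lay below without overlap, against 23.4% of genes. The Egr3 call was lost without either 4OHT + siDnmt1 library (limma adjusted p = 0.0824 and 0.101). Without 4OHT + siCtrl replicate 2, Egr2 (-1.97), Egr3 (-1.24) and Ier2 (-1.14) were called lower, 3 of 10 against 0.945% of genes. Without replicate 1 Egr1 was called higher (1.66, limma adjusted p = 0.00737; 5.5% of genes), so its sign turned with the library kept.

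The interaction asks whether the change after 4OHT differed between siDnmt1 and siCtrl. No member passed in limma (adjusted p from 0.369 up, 2 members, Egr3 at 0.87 and Ier3 at -0.61, with an unadjusted p under 0.05), where 0.123% of genes were called positive and 0.0756% negative. Egr3 fell by 2.31 with siCtrl and by 1.44 with siDnmt1, on a control level that siDnmt1 had already lowered. Without 4OHT + siCtrl replicate 1, Egr1 (2.84), Egr2 (3.27) and Ier2 (1.46) were called positive, against 2.96% of genes. Without replicate 2 there were 0, with 3 members at an unadjusted p under 0.05 in limma.

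In the inhibitor experiment, Nr4a1, Egr2, Egr3 and Ier3 were called lower in cells harvested at day 6 of the 4OHT course, 4 of 10 against 6.21% of the 11316 genes tested. Nr4a1 went from 88.9 and 100 FPKM to 7.96 and 9.93, the largest fold among the members here (-3.39 ± 0.61, limma adjusted p = 0.00786, a fold of 10.5). Egr3 went from 18.8 and 19.4 to 2.54 and 3.08 (-2.73 ± 0.42, limma adjusted p = 0.00493). Egr2 went from 32.3 and 32.0 to 2.42 and 5.33 (-3.13 ± 0.78, limma adjusted p = 0.0259). The library values of each of these groups were clear of the other. The authors' confidence interval ran from 0 to 20.0 FPKM for the 9.93 value of Nr4a1, under both untreated values. For the untreated Egr2 value of 32.3 it ran from 0 to 13984 FPKM and so covered both treated values. Ier3 was at 274 and 283 FPKM untreated and at 154 and 107 at day 6 (-1.11 ± 0.34, limma adjusted p = 0.0479), and Srf at 26.9 and 31.8 and at 18.8 and 18.2 (-0.66 ± 0.18, adjusted p = 0.0340 in limma). Ier3 passed in only 5 of the 12 alternative fits and Srf in 7.

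Egr1 (454 and 466 against 150 and 223 FPKM), Ier2 (124 and 133 against 78.0 and 69.4) and Ier5 (75.9 and 77.5 against 45.3 and 49.5) lay below untreated cells without passing the test (-1.33, -0.80 and -0.69; adjusted p = 0.139, 0.300 and 0.0522 in limma). Myc and Phlda1 lay above. Myc was at 82.8 and 110 FPKM untreated and at 135 and 162 at day 6 (0.63 ± 0.30, limma adjusted p = 0.170), and Phlda1 at 29.7 and 28.5 and at 66.6 and 38.5 (0.80 ± 0.34, adjusted p = 0.131 in limma). So 8 members lay below and 2 above without overlap, against 34.3% and 34.4% of genes. The calls numbered 2 without untreated replicate 1 or without day 6 replicate 1, 1 without untreated replicate 2 and 3 without day 6 replicate 2. Egr3 passed in each of these fits.

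Of 38 other immediate early genes, 9 fell and 2 rose at day 6, where 12.7% of all genes fell and 12.3% rose. Btg2 (-2.29), Arc (-1.86) and Trib1 (-1.61) fell, and Il6 (3.18) and Ctgf (1.93) rose. ERK feedback and Ets genes had 5 up and 2 down of 21, with the phosphatases Dusp2 (3.12) and Dusp4 (2.32) and the Ets factor Etv4 (0.98) up. Myc partners and targets had 6 up and 2 down of 20 (median 0.35), with Nop56 at 1.31 and Mxd4 at -1.36. Srf and Mrtf cytoskeletal targets had 6 up and 0 down of 18 (median 0.18), opposite to their direction with 4OHT + siCtrl. Fibroblast markers fell in 6 of 9, from 2977 to 3231 FPKM in sum to 2450 to 2515, and their part was not tested.

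With the MEK inhibitor PD0325901, Egr2, Egr3 and Nr4a1 were called lower, 3 of 10 against 4.17% of genes, and no member rose. Egr3 went from 18.8 and 19.4 FPKM to 1.96 and 0.685 (-3.92 ± 0.42, limma adjusted p = 0.00154, a fold of 15.1). Egr2 went from 32.3 and 32.0 to 4.57 and 1.42 (-3.60 ± 0.78, limma adjusted p = 0.0238), and Nr4a1 from 88.9 and 100 to 22.0 and 8.2 (-2.80 ± 0.61, limma adjusted p = 0.0234). Both treated libraries were under both controls in each gene, though replicate 2 was far under replicate 1. The untreated Egr2 value of 32.3 FPKM had an authors' confidence interval from 0 to 13984.

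The other members did not follow as evenly. Egr1, which the MEK and ERK pathway is known to induce, was at 483 and 178 FPKM with the inhibitor, a library on either side of the untreated 454 and 466 (-0.65 ± 0.59, limma adjusted p = 0.507). Ier2 was at 231 and 65.0 FPKM and Ier3 at 391 and 180, each also on both sides of its controls. Myc (80.8 and 43.5 FPKM), Phlda1 (21.9 and 13.6), Ier5 (56.5 and 41.3) and Srf (26.5 and 23.3) lay below untreated cells with differences of -0.69, -0.75, -0.67 and -0.23 (limma adjusted p = 0.178, 0.195, 0.0859 and 0.431). In all 7 members were below without overlap, against 38.2% of genes. Without PD0325901 replicate 2, whose header names another group, 1 member (Egr3, -3.22) was called, against 4.57% of genes, with Egr2 at -2.79 and Nr4a1 at -2.10 (limma adjusted p = 0.0934 and 0.0881), and without replicate 1 there were 3, against 2.65%. Leaving out either untreated library also left Egr3 alone called.

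Genes of the ERK feedback and Ets list mostly fell with the inhibitor. Of 21 ERK feedback and Ets genes, 13 fell and 2 rose (median -1.5), where 7.78% of all genes fell and 5.94% rose, with Etv4 at -6.46, Spry4 at -5.42 and Etv5 at -4.85. Other immediate early genes had 7 down and 4 up of 38: Fosl1 (-6.01), Arc (-4.27) and Plk2 (-2.26) fell, and Ctgf (2.62), Jund (1.11) and Klf2 (1.04) rose. The Srf and Mrtf cytoskeletal targets rose in 10 of 18 and fell in none (median 0.87), with Acta2 at 4.09, Cnn1 at 3.72 and Myl9 at 3.43, while Srf itself did not pass. Myc partners and targets had 1 down (Ldha, -0.99) and none up of 20, beside Myc at -0.69. Fibroblast markers rose in 4 of 9 and fell in 2, summing to 4672 to 5117 FPKM against 2977 to 3231, and handling stress genes summed to 239.2 to 377.5 FPKM against 150.5 to 152.1. The part of these markers was not tested.

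**Figure D3:**
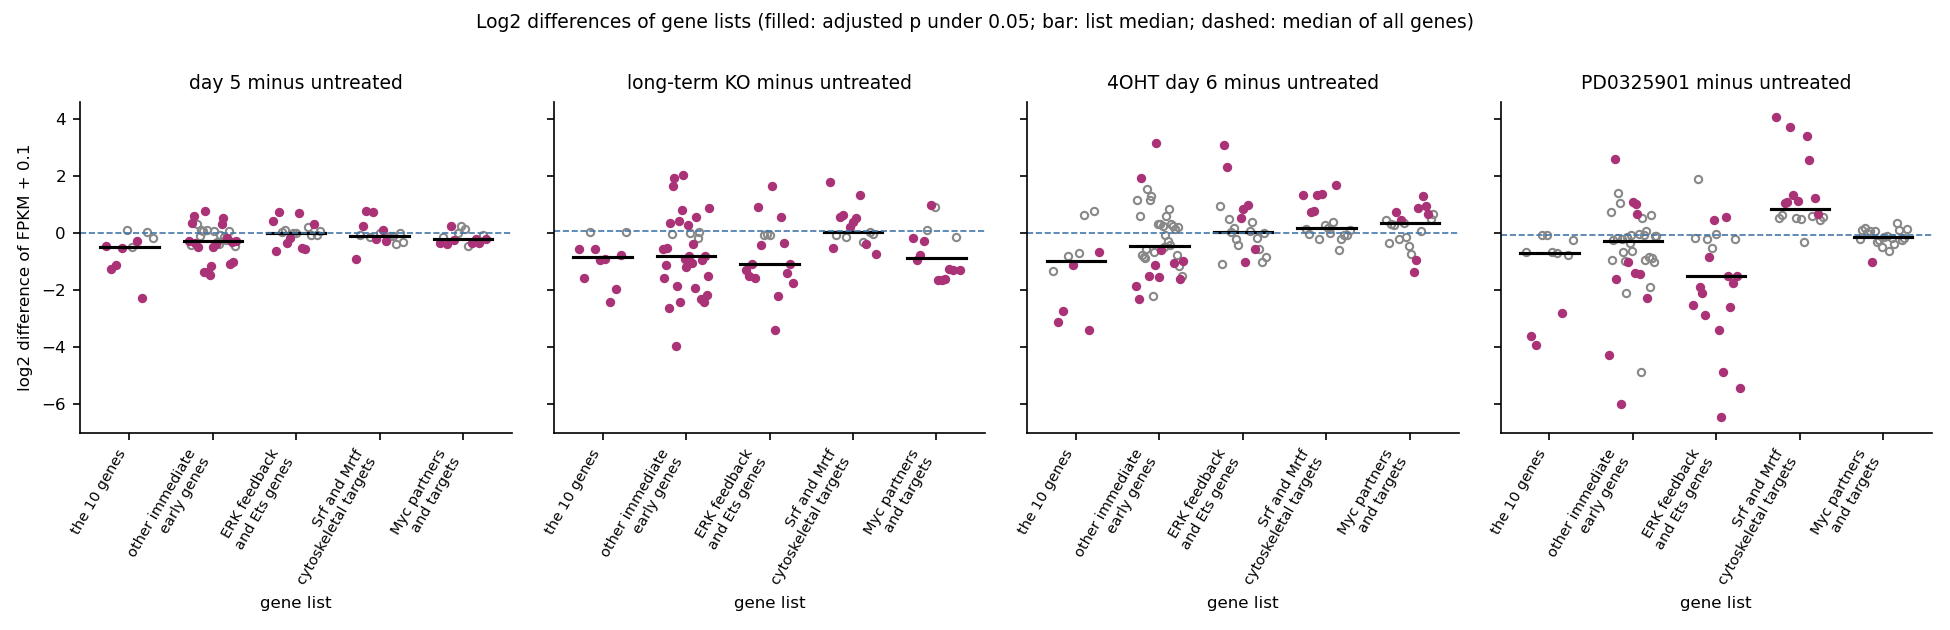
Log2 difference of FPKM + 0.1 (y axis) of the genes of 5 lists (x axis) in 4 comparisons; each point is a gene, filled where the limma adjusted p was under 0.05, the bar is the list's median and the dashed line the median of all genes. The 10 genes have medians of -0.47, -0.83, -0.96 and -0.68 from left to right, ERK feedback and Ets genes lie low in the long-term KO (-1.08) and with PD0325901 (-1.5), and Srf and Mrtf targets lie high with PD0325901 (0.87).

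When PD0325901 was given to 4OHT-treated cells, Egr3 and Phlda1 were called lower than with 4OHT alone, 2 of 10 against 1.39% of genes. Egr3 was at 0.296 and 0.299 FPKM, the lowest member values of the series, against 2.54 and 3.08 (-2.87 ± 0.42, limma adjusted p = 0.00946). These 2 values had wide confidence intervals. Phlda1 was at 16.9 and 15.7 FPKM, against 66.6 and 38.5 (-1.63 ± 0.34, limma adjusted p = 0.0344). Myc was at 67.4 and 88.2, against 135 and 162, and did not pass (-0.94 ± 0.30, limma adjusted p = 0.112). Ier3, at 225 and 213 FPKM against 154 and 107, was the only member above without overlap (0.77, limma adjusted p = 0.231; 27.4% of genes lay above so). In limma calls numbered 0 without 4OHT + PD0325901 replicate 1 (2 members at an unadjusted p under 0.05), and 1 without its replicate 2 or without day 6 replicate 1. Of the ERK feedback and Ets genes, 13 of 21 fell and none rose, where 2.63% of all genes fell and 4.3% rose, with Etv4 at -6.31 and Etv5 at -4.44.

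Compared with PD0325901 alone, the addition of 4OHT gave 0 members called in limma, where 1.33% of genes were called lower and 3.11% higher. Egr3 alone had an unadjusted p under 0.05 (-1.68 ± 0.42, limma adjusted p = 0.0535). Egr1 was at 72.9 and 230 FPKM, Egr2 at 0.437 and 2.5 and Nr4a1 at 3.84 and 13, in each case with replicate 2 well above replicate 1 and overlapping the PD0325901 libraries. Without PD0325901 replicate 2, Egr3 (-2.37) and Ier2 (-1.73) were called lower, 2 of 10 against 0.619% of genes. The interaction of 4OHT and PD0325901 had 0 members past the limma threshold, with 0.521% of genes called positive and 0.203% negative. Its only unadjusted p under 0.05 was for Nr4a1 (2.48 ± 0.86, limma adjusted p = 0.228), which differed after 4OHT by -3.39 without the inhibitor and by -0.92 with it.

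With TSA, Ier3 and Phlda1 were called higher, 2 of 10 members, a share near that of all genes (19.3%). Egr3, Ier5 and Srf were called lower, 3 of 10 against 12.8%. Phlda1 went from 29.7 and 28.5 FPKM to 63.0 and 108 (1.5 ± 0.34, limma adjusted p = 0.0070) and Ier3 from 274 and 283 to 686 and 550 (1.14 ± 0.34, limma adjusted p = 0.0216), where Ier3 became the highest member. Srf went from 26.9 and 31.8 to 12.4 and 13.8 (-1.15 ± 0.18, limma adjusted p = 0.00112), Ier5 from 75.9 and 77.5 to 27.4 and 38.9 (-1.23 ± 0.22, limma adjusted p = 0.00201) and Egr3 from 18.8 and 19.4 to 7.20 and 4.86 (-1.67 ± 0.42, limma adjusted p = 0.0111). All of these groups were apart, as were 7 members below and 3 above in all, against 38.3% and 47% of genes. The authors' confidence interval ran from 0 to 14347 FPKM for the Phlda1 value of 63.0 and from 1.33 to 8.39 for the Egr3 value of 4.86.

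Egr1 (194 and 197 FPKM), Egr2 (9.63 and 8.48) and Nr4a1 (50.2 and 32.7) lay below untreated cells under TSA without passing (-1.23, -1.82 and -1.22; limma adjusted p = 0.109, 0.0822 and 0.123). Ier2, at 142 and 218 FPKM, differed by 0.45 and Myc, at 68.1 and 53.4, by -0.66 (limma adjusted p = 0.485 and 0.0956). The 5 calls became 3 without untreated replicate 2 or TSA replicate 1 and 2 without TSA replicate 2. Other immediate early genes had 10 up and 7 down of 38, where 31.5% of all genes rose and 24.3% fell, with Nr4a3 at 3.79, Cxcl1 at 3.0, Lif at -2.78 and Trib1 at -2.11. Myc partners and targets fell in 12 of 20 and rose in 4 (median -0.60). Markers of other cell types moved with TSA: Epcam was at 28.1 and 29.2 FPKM, against 0.839 and 1.09, and Cd68 at 66.9 and 60.5, against 4.90 and 4.27. Proliferation genes summed to 377.3 to 389.5 FPKM against 656.1 to 658.6, and Hspb1 was at 585 and 550 against 53.2 and 55.0. Krt5 and Itgam stayed under 0.1 FPKM, and the part of these genes in the members' differences was not tested.

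**Figure D4:**
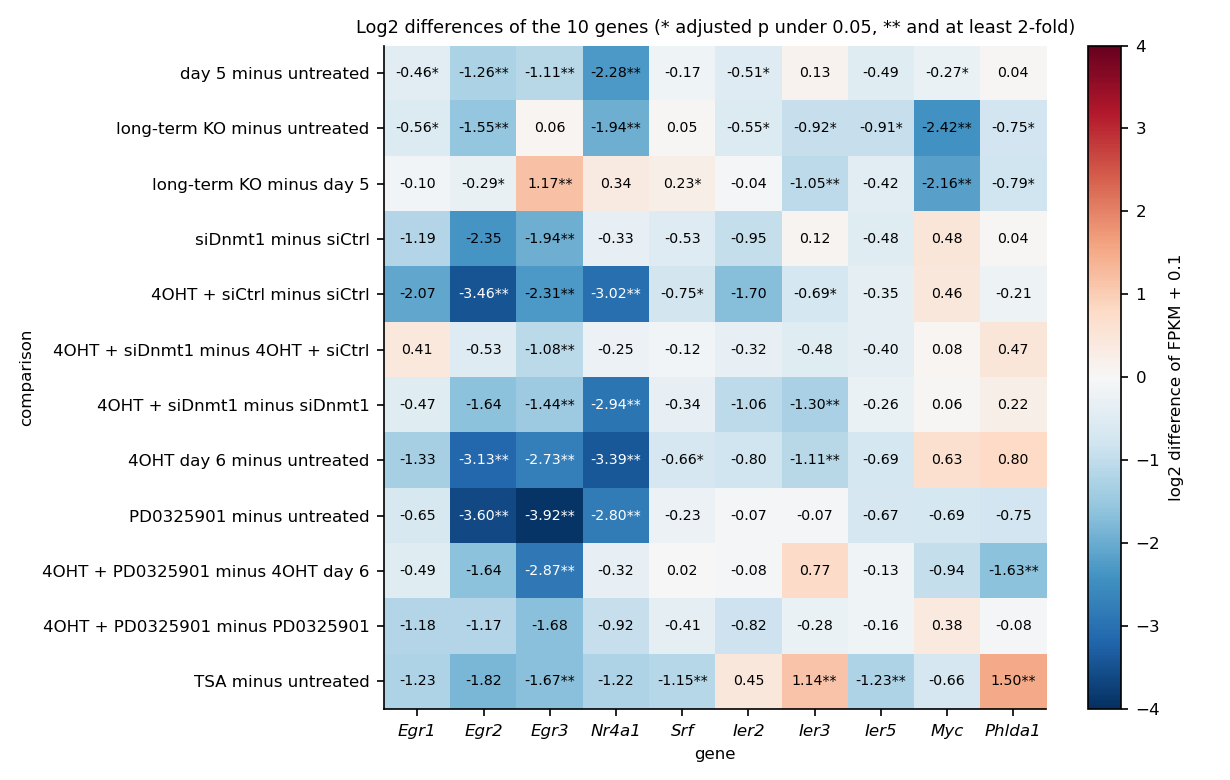
Log2 difference of FPKM + 0.1 (number and colour) of each gene (x axis) in the 12 comparisons (y axis); 1 asterisk marks a limma adjusted p under 0.05 and a pair of asterisks also a fold of at least 2. Egr2, Egr3 and Nr4a1 are blue in each comparison of 4OHT or PD0325901 with untreated or siCtrl cells, except Egr3 in the long-term KO (0.06), where Myc is the deepest blue (-2.42), and the darkest red cells are Egr3 from day 5 to the long-term KO and Phlda1 and Ier3 under TSA.

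Set side by side, day 5, 4OHT + siCtrl and 4OHT day 6 are 3 comparisons after 4OHT, each with its own controls. Egr2, Egr3 and Nr4a1 were called lower in all 3 with all libraries in the fit. Of all genes, 1.35%, 3.46% and 6.21% were called lower in the separate comparisons. Egr3 passed in all 12 alternatives run for each of the siRNA and inhibitor comparisons, whereas Egr2 passed in 7 of 12 for 4OHT + siCtrl and 8 of 12 for 4OHT day 6, and Nr4a1 in 9 and 11 of 12. Nr4a1 differed by -2.28, -3.02 and -3.39, Egr2 by -1.26, -3.46 (-2.02 or -4.90 without replicate 2 or 1 of 4OHT + siCtrl) and -3.13 and Egr3 by -1.11, -2.31 and -2.73. Egr1, Ier2, Srf and Ier5 also had negative differences in all 3, so 7 members did, and of these Srf passed in 2, Egr1 and Ier2 in 1 and Ier5 in none. The share of all genes called lower, or with a negative difference, in all 3 was not taken, so these counts describe only the members. Ier3 was at 0.13, -0.69 and -1.11. For 4OHT + siCtrl and 4OHT day 6, Ier3 passed in 4 and 5 of 12 alternatives and Srf in 8 and 7. Myc (-0.27, 0.46 and 0.63) and Phlda1 (0.04, -0.21 and 0.80) had no common sign. The experiments differ in time, library type and transfection, and the differences between them were not tested.

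Patterns over the 12 groups were compared as the distance between group means of log2(FPKM + 0.1), each experiment centred on its own mean, among 7865 genes tested in all 3 experiments. The nearest to Egr1 were Igdcc4 (distance 0.914), Sgcd (1.01) and Tshz3 (1.08), and the nearest member was Ier2 (1.36). The nearest to Myc were Trmt1 (0.732), Wdr12 (0.744) and Shmt1 (0.748), with Ier5 as the nearest member at 1.97. In the long-term KO the Trmt1 mean rests on replicate 2, where the gene is listed at 0, beside 18.2 and 15.9 FPKM in the other libraries. These are descriptions over groups that share controls.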

How the data were processed

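Total RNA (rRNA depleted) and the RNA of siRNA- and inhibitor-treated Setdb1 cKO iMEFs were sequenced by the authors in 27 libraries. Alignment by the authors used TopHat2 2.0.12 and mm9 and kept 1 position for a read with several hits. The authors deposited FPKM values with confidence intervals from Cufflinks for each library. The study names RefSeq as the annotation, but the rows were not limited to RefSeq genes. Cuffdiff tables of the authors' own comparisons (group FPKM, fold changes, p and q values) were not used, and 0 per-sample columns were left unmapped. Total RNA rows, which carry no symbols, were matched by position, a row covering at least 95% of the gene and each being the other's best match. These rows differed in extent between libraries: for Nr4a1 the row began at 101084690 in untreated replicate 2 and at 101097277 in replicate 1. Further rows inside a gene were not added, such as 40.8 FPKM within Ier3 in untreated replicate 2. Rows of this kind also occurred in the other experiments, such as 8026 FPKM over 88 bases within Egr1 in 4OHT + PD0325901 replicate 2. The part of such row splits in the differences was not tested.

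For each experiment log2(FPKM + 0.1) was fitted with limma 3.58.1 in R 4.3.3 (trended variance, all groups of the experiment in 1 fit, two-sided, Benjamini-Hochberg over all genes tested). A gene was tested if it reached 1 FPKM in a number of libraries no smaller than the smallest group of its experiment. A call required an adjusted p under 0.05 and a fold of at least 2. The steps were tested on simulated data. Tables and figures were made with Python 3.11.15, numpy 2.4.6, pandas 2.3.3 and matplotlib 3.10.9. Depth was implied from the confidence intervals, since the deposited FPKM hold no counts.

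The members and gene lists were chosen with earlier results of these data known. The 10 members were named in every comparison, Setdb1 and Dnmt1 as checks, and from each list up to 3 risen and 3 fallen genes with the largest changes. Irf7 and the marker genes named were chosen after their values were seen, as was the fit of all siRNA groups without 4OHT + siCtrl replicate 2. Alternatives were the pseudocount, the filter, scaling, the groups fitted, the fold limit, a replicate block, a cover of 50% for the row match, and leaving out each library.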

Additional observations from a re-analysis of the deposited data

Results flagged for a closer look

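Myc differences after 4OHT had opposite signs in the total RNA and inhibitor experiments. At day 5 every 4OHT library lay below every untreated library (log2 difference -0.267, limma adjusted p = 0.0186, 0.0526 without untreated replicate 2 and 0.0576 without day 5 replicate 1). At day 6 both 4OHT libraries lay above both untreated libraries (0.629), a difference that did not pass (limma adjusted p = 0.170). In the siRNA experiment the 4OHT + siCtrl libraries lay on either side of siCtrl (0.46, limma adjusted p = 0.517). The difference between day 5 and day 6 was not tested, and time after 4OHT and library type cannot be told apart.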

How the results depend on the processing

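No value changed sign under any alternative in limma for the members that had passed. Day 5 and long-term differences of Egr2 and Nr4a1, and of Myc in the long-term KO, kept a limma adjusted p under 0.05 in all 14 alternatives run for each. Those of Egr3 (day 5, and higher from day 5 to the long-term KO) did so in all 13. These counts rest on the adjusted p alone, so they do not show that the fold stayed at 2 or more. With no fold limit the members passing numbered 6 at day 5 and 8 in the long-term KO, against 37.3% and 67.7% of genes in either direction. From day 5 to the long-term KO 6 passed, against 66.2%, and for 4OHT + siCtrl 5 did, against 13.7%. For 4OHT + siDnmt1 against 4OHT + siCtrl the single call became 0 with a pseudocount of 1 or 0.01, no filter, a filter at 5 FPKM, median-ratio scaling and a fit of the groups compared alone, and Egr3 then stood at -1.07 to -1.10 where it was fitted with a pseudocount under 1. Fitting only the groups compared gave 3 calls for siDnmt1, 1 for 4OHT + siCtrl and 5 for 4OHT + siDnmt1 against siDnmt1. It gave 1 for PD0325901, 0 for 4OHT + PD0325901 against 4OHT and 8 for TSA. The share of all genes called was not taken in these fits, so the counts show only how the calls depend on the fit. Under TSA 32.1% of all genes were called in the main fit, in either direction. For 4OHT + PD0325901 against PD0325901, a pseudocount of 0.01 and median-ratio scaling each gave 1. With no filter there were 2 for 4OHT day 6, 1 for PD0325901 and 1 for 4OHT + PD0325901 against 4OHT.

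Replicate numbers are shared between groups, but same-numbered libraries did not deviate together in the total RNA and siRNA experiments (correlations of -0.0798 to 0.108), so the numbers were not taken as pairs. Among PD0325901, 4OHT day 6 and 4OHT + PD0325901 the correlations were 0.206 to 0.259. With a replicate block the calls were 0 for 4OHT + siDnmt1 against 4OHT + siCtrl, 1 for 4OHT + PD0325901 against PD0325901, 2 for 4OHT + siCtrl and as in the main fit for the others.

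Leaving out 1 library at a time gave 3 to 3 calls at day 5, 3 to 5 in the long-term KO and 2 to 3 between them. It gave 0 to 3 for siDnmt1, 1 to 5 for 4OHT + siCtrl, 0 to 3 for 4OHT + siDnmt1 against 4OHT + siCtrl, 0 to 5 against siDnmt1 and 0 to 3 for their interaction. It gave 1 to 3 for 4OHT day 6, 1 to 3 for PD0325901, 0 to 2 for 4OHT + PD0325901 against 4OHT, 0 to 2 against PD0325901, 2 to 4 for TSA and 0 to 0 for the second interaction. These counts are of members only and have no share of all genes beside them, so they describe only how stable the calls were. With an arm of 1 library, that library is assumed to vary like the other groups. The siRNA and inhibitor groups hold 2 libraries, which limits precision there, and the causes of the lost calls were not tested.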
